A study of Mus musculus with 12 samples.

Results

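The antigen processing and MHC rows were 8 rows of a table of 24552 gene symbols: Tap1, Psmb9, A930015D03Rik, 9330175E14Rik, Cast, H2-K1, H2-D1 and H2-Ab1. They were chosen by symbol, as genes of peptide presentation or as rows lying opposite such genes, with earlier results of these data known. All 8 were found. RNA was measured in macrophages grown from mouse bone marrow, in 4 groups of 3 libraries. Gpr31b knockout (KO) cells after LPS and IFN-γ were KO M1, and KO cells without stimulation were KO M0. Wild-type (WT) cells with and without the stimulus were WT M1 and WT M0. Gpr31b codes for the G protein-coupled receptor GPR31. The labels read here name no allele, strain or age of the mice, and no dose or time of the stimulus. They do not say whether the 3 libraries of a group came from separate animals, so the p-values below cover only library-to-library spread, which may be technical.

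MHC class I molecules show peptides from inside the cell to cytotoxic T cells. The immunoproteasome, with its subunit PSMB9, cuts proteins, the TAP1 and TAP2 transporter carries the pieces into the endoplasmic reticulum, the aminopeptidase ERAP1 trims them, and the heavy chains H2-K and H2-D bind them together with β2-microglobulin. MHC class II molecules, such as the H2-A heterodimer whose β chain H2-Ab1 encodes, show peptides from the endosome to helper T cells. In macrophages IFN-γ is known to raise both arms, the first through the transactivator NLRC5 and the second through CIITA. Calpastatin, encoded by Cast, inhibits calpain proteases and is no part of either arm.

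The Gpr31b row was at 0 counts throughout KO M1 and KO M0, against 2 counts per WT M1 library and 0 throughout WT M0. At this depth it bears on the KO label in M1 only, and weakly. The libraries were strand-specific, but on which strand reads were counted is not stated in the labels or the table. Rows with an exon of another gene on the opposite strand were 23.2% of the rows matched to GENCODE M21, and they held 90.9% of the matched counts. Every value below is therefore that of a row, and the table does not show which gene of an overlapping pair gave the reads. The B2m row, with no opposite-strand exon, held 7 to 15 counts per KO M0 library. The Rfxank row, with 33.8% of its exon bases under opposite-strand exons, held 680 to 911. The counted strand was not tested, so a row without such an overlap need not report its own gene either. The 12 libraries held 372878 to 585465 counts each. Among counts of 1 to 12, 60.9% were even, and what this does to the tests was not tested. Floors for rows at 0 cover only counting error, and only in the group at 0. With the counted strand unknown, a row at 0 does not show that its gene was silent or its cell type absent. Of 8 macrophage marker rows, such as Csf1r and Adgre1, none was at 0 throughout, and their summed level was 295 to 627 CPM. Csf1r shares 873 exon bases with Hmgxb3 on the other strand. With stimulation the 8 rows were mixed (calls as defined below). In KO 5 were called higher and 2 lower, where 25.2% and 22.4% of all tested rows were. In WT 4 were called higher and 1 lower, where 25.7% and 23.1% were. The sum alone does not show cell identity. Rows of 5 T and NK cell markers and 5 neutrophil markers held no count in any library, where 3 counts over a group of 3 libraries correspond to 1.91 to 2.70 CPM. Of 4 B cell marker rows, 3 were at 0 throughout and Cd79a held at most 3 counts in a library. The 4 fibroblast marker rows summed to 0 counts in KO M1 and KO M0 libraries, to at most 4 in a WT M1 library and to at most 7 in a WT M0 library. In RNA of whole cultures, fewer cells of a type and less RNA per cell cannot be told apart.

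Of the 8 genes, 5 (Tap1, Psmb9, H2-K1, H2-D1 and H2-Ab1) and the partner H2-T22 lie in the MHC region of chromosome 17, together with A930015D03Rik. All coordinates are on mm10/GRCm38. Tap1 (chr17:34187553-34197225, plus strand) and Psmb9 (chr17:34181987-34187764, minus strand) stand head to head and, in GENCODE M21, share 212 exon bases at their 5′ ends. The antisense gene Gm20496, on the minus strand, ends 2091 bases from the nearest Tap1 exon. A930015D03Rik (chr17:35994453-36038435, plus strand), an antisense transcript, shares 1003 of its 1111 exon bases with the class I gene H2-T22, whose 3′ end it runs into. The long noncoding 9330175E14Rik (chr8:94422898-94435103, minus strand) shares 78 of its 5938 exon bases with the first exon of Nlrc5. Cast (chr13:74692368-74808810, minus strand) and Erap1 (plus strand) meet tail to tail and share 834 bases. None of the 4 shared stretches held coding sequence of either gene. H2-K1 (chr17:33996017-34000347, minus strand), H2-D1 (chr17:35262730-35267499, plus strand) and H2-Ab1 (chr17:34257689-34269419, plus strand) had no opposite-strand exon overlap, and no opposite-strand gene ended within 5000 bases before one of their exons. H2-K1 and H2-D1 are close paralogs, so reads could be split between them and other class I rows.

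**Figure D1:**
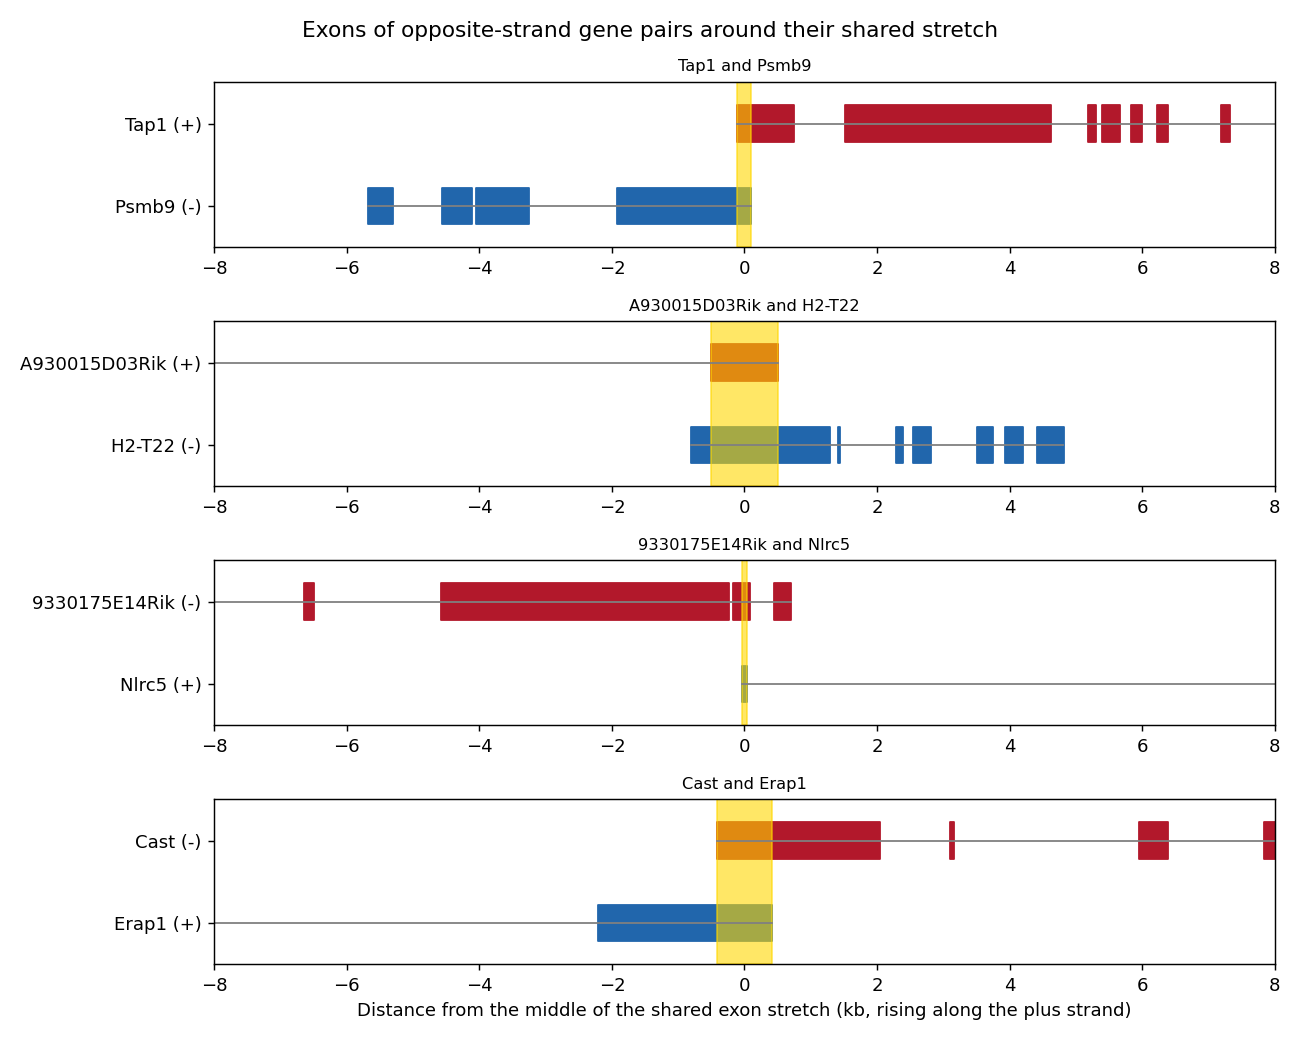
Exons of the 4 opposite-strand pairs, with distance from the middle of the shared stretch in kb on the x axis, rising along the plus strand. Red boxes are exons of the first gene named, blue boxes those of its partner, and the yellow band marks the shared stretch of 212, 1003, 78 and 834 bases from top to bottom. Tap1 with Psmb9 and 9330175E14Rik with Nlrc5 overlap at or near their 5′ ends, and the other pairs at their 3′ ends.

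Promoter windows of 300 bases, 250 before to 50 after a start site, were taken from RefSeq (GRCm38.p6). Of the 8 members 6 had an entry; A930015D03Rik and H2-Ab1 had none. Printed below are the window that Tap1 shares with Psmb9, and those of the class I genes H2-K1, H2-D1 and H2-T22, since these rows rose with stimulation. The Tap1 window is chr17:34187306-34187605 (plus strand), that of H2-K1 chr17:34000298-34000597 (minus), that of H2-D1 chr17:35262844-35263143 (plus) and that of H2-T22 chr17:36042693-36042992 (minus). Each is written 5′ to 3′ along its own gene. Capitals mark letters of the motifs given after the sequences.
Tap1: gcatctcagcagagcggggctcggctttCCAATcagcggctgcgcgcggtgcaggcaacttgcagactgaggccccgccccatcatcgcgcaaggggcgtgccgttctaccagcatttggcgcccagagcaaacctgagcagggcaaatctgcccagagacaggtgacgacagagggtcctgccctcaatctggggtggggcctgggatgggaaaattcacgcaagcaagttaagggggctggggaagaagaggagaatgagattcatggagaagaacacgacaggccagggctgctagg
H2-K1: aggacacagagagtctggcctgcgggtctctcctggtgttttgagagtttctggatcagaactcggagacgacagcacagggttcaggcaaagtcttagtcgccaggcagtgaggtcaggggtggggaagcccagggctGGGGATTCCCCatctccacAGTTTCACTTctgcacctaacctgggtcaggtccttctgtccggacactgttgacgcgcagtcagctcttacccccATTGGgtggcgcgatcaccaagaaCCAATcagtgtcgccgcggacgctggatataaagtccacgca
H2-D1: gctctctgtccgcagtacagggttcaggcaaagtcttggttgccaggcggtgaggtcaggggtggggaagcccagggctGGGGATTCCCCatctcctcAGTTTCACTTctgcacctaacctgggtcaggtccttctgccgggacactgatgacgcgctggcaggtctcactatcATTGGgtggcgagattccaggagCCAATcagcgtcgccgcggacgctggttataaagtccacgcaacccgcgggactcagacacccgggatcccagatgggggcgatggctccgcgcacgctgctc
H2-T22: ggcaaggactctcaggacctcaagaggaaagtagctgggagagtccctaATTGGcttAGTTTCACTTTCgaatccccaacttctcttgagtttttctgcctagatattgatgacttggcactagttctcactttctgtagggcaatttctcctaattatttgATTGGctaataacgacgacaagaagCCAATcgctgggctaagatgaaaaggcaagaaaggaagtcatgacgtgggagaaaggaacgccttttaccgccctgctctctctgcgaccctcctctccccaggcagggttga

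The Tap1 and Psmb9 windows are one stretch of DNA read on both strands: 275 of their 300 bases coincide, and the start sites lie 226 bases apart. From these RefSeq starts the genes run away from each other and share no exon base. The 212 shared bases given above rest on the GENCODE exon of Psmb9, which reaches 34187764. The Psmb9 start is base 25 of the Tap1 window as printed. The motifs were searched on both strands: the interferon-γ activated site TTCNNNGAA, the core of the interferon-stimulated response element (GAAA, any 2 bases, GAAA), and ATTGG, the core of the Y box known from MHC promoters. Of 32851 windows in the RefSeq table, 8.30% held the first, 3.44% the second and 37.4% the third. The Tap1 window held ATTGG once, as CCAAT at bases 29 to 33, and neither of the others. Cast had 4 start sites with a window each, and H2-K1 had 2, the first of them printed above. Among the windows searched, the activated site stood only in the first Cast window (TTCTTAGAA, bases 80 to 88). The Cast row was not called. The 9330175E14Rik window held ATTGG 2 times, each as CCAAT. In H2-K1, H2-D1 and H2-T22 an ATTGG was followed by a CCAAT, with 24, 23 and 25 bases between their first letters. The response element core was in H2-T22 (TTTCACTTTC, bases 60 to 69) and in the window of Erap1. The longest run of letters common to H2-K1 and H2-D1 was 47 bases. That run holds the first block of capitals in both windows (bases 140 to 150 of H2-K1 and 80 to 90 of H2-D1), the NF-κB motif known from the class I enhancer A. Shortly after the run, in both windows, stands the next block of capitals (bases 159 to 168 and 99 to 108), known from the class I interferon response sequence. Both motifs were searched after the windows were seen. They occurred in 10 and 46 of the 32851 windows. The interferon response letters were also in H2-T22 at bases 58 to 67, where they overlap the response element core. A match here is a match of letters, not a measured binding site.

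The response to LPS and IFN-γ was tested within each genotype. Levels are CPM, reads of a row relative to its TMM-adjusted library total, and folds compare M1 with M0. A row was called at an edgeR adjusted p under 0.05, adjusted over all 2333 rows that passed the filter on low counts. All 8 rows passed it, 5 of them also on M0 libraries alone, while Tap1, H2-D1 and H2-Ab1 passed only through their M1 counts. In KO cells 7 of the 8 rows rose and Cast was not called, where 25.2% of all tested rows were called higher. In WT cells the same count, 7 of 8 with Cast not called, stood against 25.7% of all tested rows. The KO M1 libraries lay wholly above the KO M0 libraries in 7 rows, and the WT M1 above the WT M0 libraries in all 8. Such separation upward was seen in 28.3% of all tested rows in KO and 28.2% in WT, and separation downward in 26.9% and 27.9%. None of the 8 was called lower, where 22.4% of all tested rows were in KO and 23.1% in WT, so that 47.6% and 48.8% were called in either direction. The 8 rows were chosen with earlier results known, so these shares are a background for the counts and not a test of enrichment.

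The largest change was in the Tap1 row, named for one chain of the peptide transporter. It stood at 645, 608 and 775 CPM in the KO M1 libraries, against 7.84, 1.98 and 28.5 CPM in the KO M0 libraries. In WT cells it stood at 605, 698 and 582 CPM in M1, against 10.5, 0 and 1.87 CPM in M0. Both stimulated groups thus lay far above every unstimulated library, and the M0 libraries held 0 to 14 counts each. The log2 fold change was 5.71 in KO (standard error 0.41, edgeR adjusted p = 9.98e-10) and 7.06 in WT (standard error 0.47, edgeR adjusted p = 3.65e-10). Single M0 libraries moved these folds: without KO M0 replicate 3 the KO value was 7.01, and without WT M0 replicate 1 the WT value was 8.94.

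The Psmb9 row, on the other side of the shared promoter and named for a catalytic subunit of the immunoproteasome, rose less. Its levels were 131, 73.7 and 85.8 CPM in KO M1, against 29.4, 23.8 and 24.4 CPM in KO M0. They were 111, 90.6 and 96.5 CPM in WT M1, against 8.75, 12.8 and 7.49 CPM in WT M0. The stimulated groups overlapped each other, whereas all 3 KO M0 libraries lay above all 3 WT M0 libraries. On the log2 scale the row rose by 1.88 in KO (standard error 0.40, edgeR adjusted p = 0.0002) and by 3.34 in WT (standard error 0.45, edgeR adjusted p = 1.93e-07).

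Per kb of exon, the Tap1 row stood at 123 ± 16.0 CPM in KO M1, against 2.33 ± 2.54 CPM in KO M0 (SD, n = 3 each). The Psmb9 row stood at 26.4 ± 8.21 CPM per kb in KO M1, against 7.07 ± 0.839 CPM per kb in KO M0. The order of the pair thus differed between the states: the Tap1 row was the higher one in M1 and the Psmb9 row in the means of M0. In WT the levels per kb were 115 ± 11.2 for Tap1 and 27.1 ± 2.80 for Psmb9 in M1, against 0.753 ± 1.02 and 2.64 ± 0.756 in M0.

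The A930015D03Rik row, opposite H2-T22, was at 172, 197 and 154 CPM in KO M1, against 51.0, 43.7 and 26.5 CPM in KO M0. WT M1 libraries were at 161, 196 and 273 CPM, against 35.0, 29.8 and 45.0 CPM in WT M0. M1 and M0 did not overlap in either genotype. Its log2 fold change was 2.10 in KO and 2.49 in WT, each with a standard error of 0.31 (edgeR adjusted p = 7.65e-07 and 3.10e-08). The row of its partner H2-T22, a nonclassical class I gene, rose as well, by 4.05 in KO and 4.87 in WT on the log2 scale (edgeR adjusted p = 5.42e-14 and 6.51e-15). Per kb of exon the A930015D03Rik row averaged 157 ± 19.7 CPM in KO M1, against 36.3 ± 11.3 CPM in KO M0. The H2-T22 row averaged 121 ± 21.7 CPM per kb in KO M1, against 7.22 ± 2.45 CPM per kb in KO M0. H2-T22 has near copies, among them H2-T10, so its reads may be split.

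The 9330175E14Rik row showed the most even response. It was at 446, 445 and 553 CPM in KO M1, against 25.5, 41.7 and 26.5 CPM in KO M0. It was at 551, 474 and 472 CPM in WT M1, against 38.5, 17.1 and 20.6 CPM in WT M0. Every M1 library was above 440 CPM and every M0 library below 42 CPM, in both genotypes. The log2 fold change was 3.94 in KO (standard error 0.25, edgeR adjusted p = 5.22e-15) and 4.26 in WT (standard error 0.25, edgeR adjusted p = 1.11e-15). Its standard errors were the smallest of the 8 rows in both genotypes.

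The row of Nlrc5 itself, the class I transactivator, was too low for the edgeR test. It held 6, 7 and 9 counts in the KO M1 libraries and 2, 6 and 2 in WT M1, against 0 in all KO M0 and all WT M0 libraries. Set against 3 counts over the M0 group, the level was 9.92-fold higher in KO M1 and 4.65-fold higher in WT M1. These folds take the M1 counts as exact, so they are not lower bounds. Over both genotypes the 6 M1 libraries averaged 14.6 ± 7.46 CPM and the 6 M0 libraries 0 (exact permutation test, two-sided, p = 0.00216, the smallest that 6 against 6 allows). Of the exon bases of Nlrc5, 0.918% lie under exons of 9330175E14Rik. Per kb of exon the 9330175E14Rik row stood at 81.0 ± 10.4 CPM in KO M1 and the Nlrc5 row at 2.31 ± 0.313 CPM in the same libraries.

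The Cast row, opposite Erap1, was the member that was not called. Its levels were 86.2, 76.4 and 55.5 CPM in KO M1, against 78.4, 55.6 and 26.5 CPM in KO M0, and these groups overlapped. In WT they were 66.3, 75.5 and 89.8 CPM in M1, against 49.0, 21.3 and 48.7 CPM in M0, without overlap. The log2 fold change was 0.43 in KO (95% interval −0.40 to 1.26, edgeR adjusted p = 0.40) and 0.93 in WT (0.08 to 1.78, edgeR adjusted p = 0.063). The WT value passed, at an edgeR adjusted p of 0.0474, without KO M0 replicate 3. The KO value was −0.037 when libraries were scaled by their totals alone. The Erap1 row held 0 to 4 counts in every library, with an M1 mean of 3.88 ± 4.87 CPM and an M0 mean of 4.32 ± 2.63 CPM (SD, n = 6 each, exact permutation p = 0.861). With 8 counts over all M1 libraries and 13 over all M0 libraries, a small change in the Erap1 row would not have been detected.

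**Figure D2:**
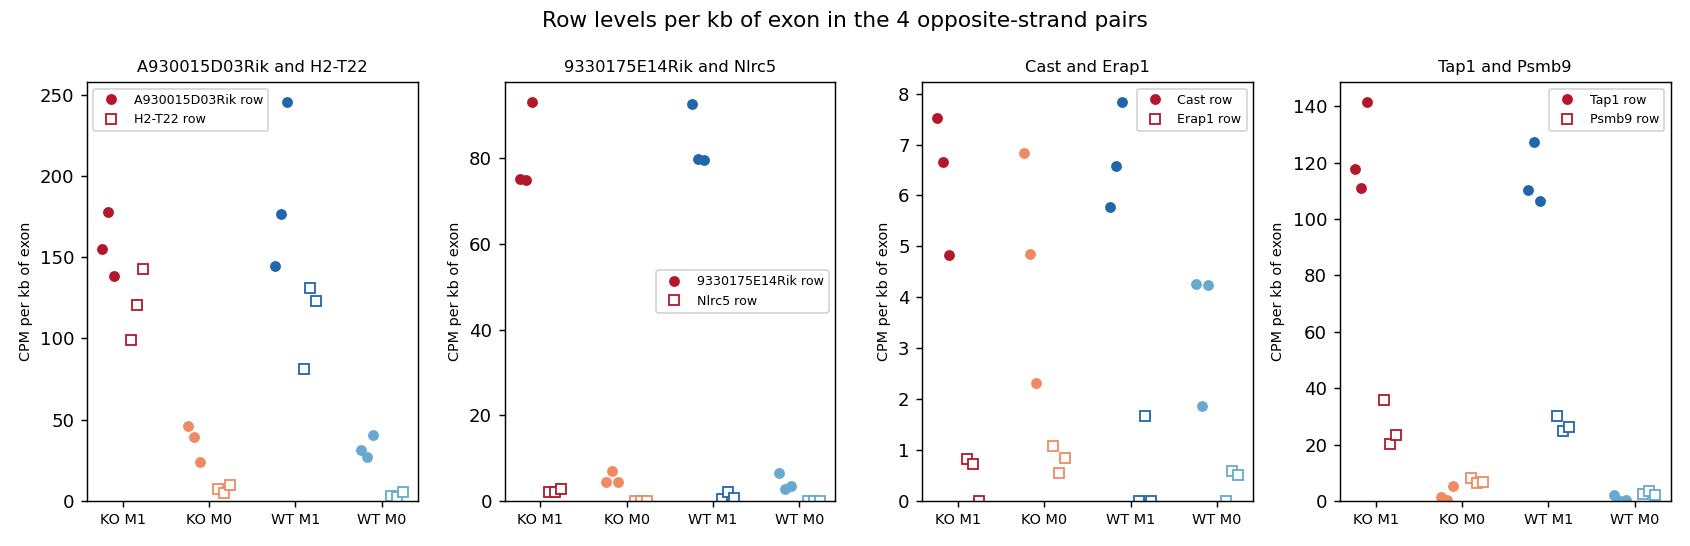
Row levels per kb of exon (y axis, TMM-scaled CPM per kb) in each library of the 4 groups (x axis) for the opposite-strand pairs. Filled circles are the first row named and open squares its partner; the panels have separate scales. The 9330175E14Rik row averaged 81.0 CPM per kb in KO M1 and the Nlrc5 row 2.31, while in the A930015D03Rik and H2-T22 panel both rows are high in M1.

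Among the class I heavy chains, the H2-K1 row was at 273, 229 and 187 CPM in KO M1, against 39.2, 39.7 and 34.6 CPM in KO M0. In WT it was at 233, 230 and 166 CPM in M1, against 26.2, 46.9 and 14.99 CPM in M0. The states did not overlap in either genotype, and the M1 groups covered much the same range. H2-K1 had a log2 fold change of 2.59 in KO (standard error 0.30, edgeR adjusted p = 1.41e-08) and 2.86 in WT (standard error 0.32, edgeR adjusted p = 3.74e-09).

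The H2-D1 row was several times lower. It was at 32.7, 68.5 and 20.2 CPM in KO M1, against 5.88, 19.8 and 6.10 CPM in KO M0. KO M0 replicate 2 came within 1 CPM of the lowest KO M1 library. In WT it was at 44.2, 24.2 and 36.6 CPM in M1, against 3.50, 2.13 and 5.62 CPM in M0. The log2 fold change was 1.90 in KO (standard error 0.69, edgeR adjusted p = 0.024) and 3.13 in WT (standard error 0.79, edgeR adjusted p = 0.00138). The KO call was lost without KO M1 replicate 2 (log2 fold change 1.29, edgeR adjusted p = 0.223), without KO M0 replicate 1 (adjusted p = 0.0896) and without KO M0 replicate 3 (adjusted p = 0.0895). It was also lost with totals alone as the scale (adjusted p = 0.0864) and with no filter on low counts (adjusted p = 0.105). Without KO M0 replicate 2 it was kept, with a log2 fold change of 2.69.

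The H2-Ab1 row, the class II member, was at 62.4, 50.0 and 88.3 CPM in KO M1, against 7.84, 7.94 and 2.03 CPM in KO M0. In WT it was at 42.2, 103 and 79.8 CPM in M1, against 6.996, 0 and 3.75 CPM in M0. All M1 libraries lay above all M0 libraries, although WT M1 spread more than 2-fold. The log2 fold change was 3.43 in KO (standard error 0.64, edgeR adjusted p = 3.77e-05) and 4.198 in WT (standard error 0.67, edgeR adjusted p = 4.01e-06). Without WT M0 replicate 1 the WT value was 5.04. Class II genes are also a mark of dendritic cells, which bone marrow cultures can hold. Of 5 dendritic cell marker rows, Flt3 and Zbtb46 were at 0 in all libraries. The summed level of the 5 was 492 to 716 CPM in KO M1 against 11.8 to 31.7 CPM in KO M0, and 549 to 655 CPM in WT M1 against 18.7 to 40.5 CPM in WT M0. Nearly all of this came from the Xcr1 row, whose log2 fold change was 4.74 in KO and 4.45 in WT, and the part of other cells in the H2-Ab1 result was not tested.

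**Figure D3:**
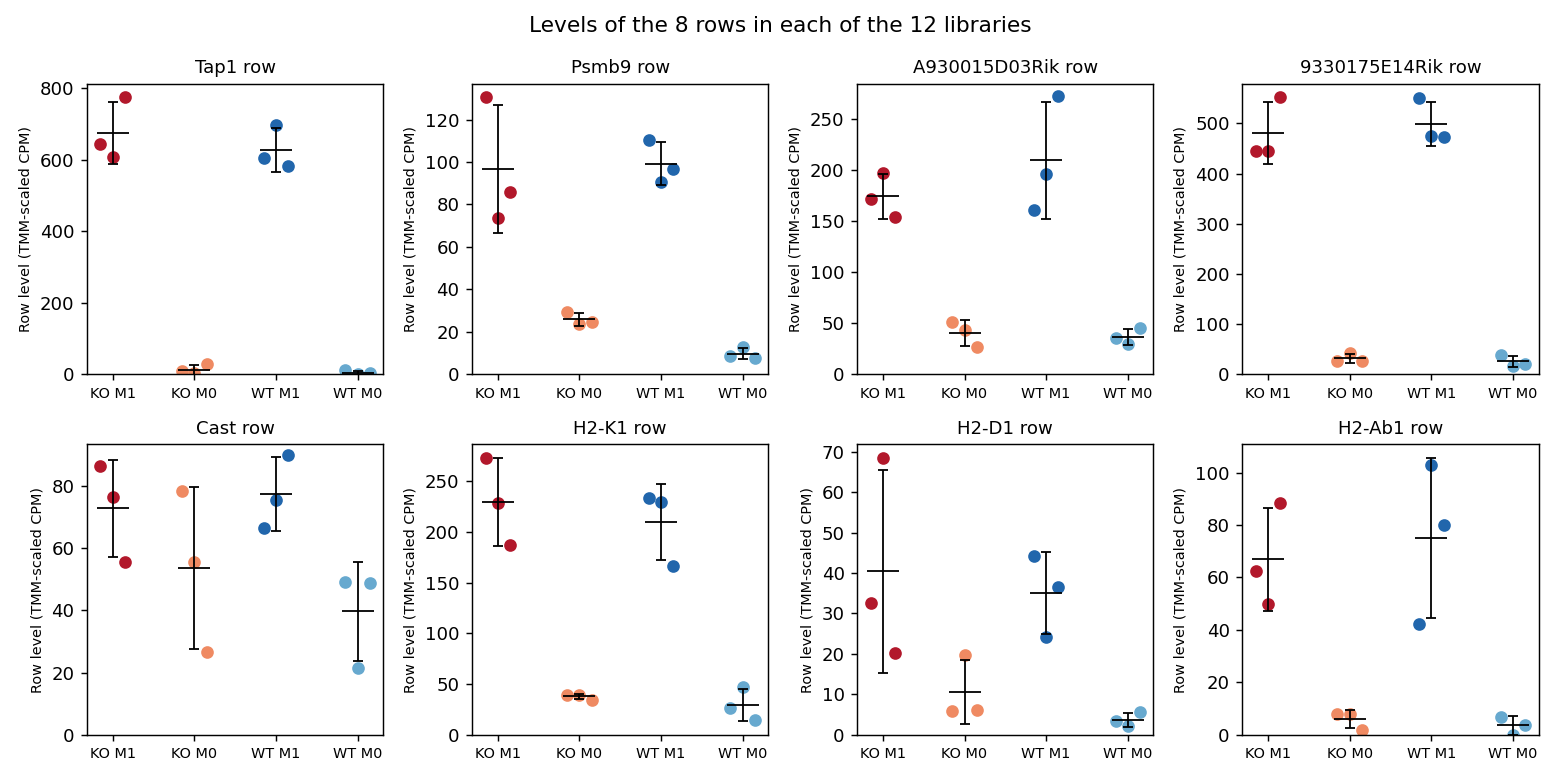
Levels of the 8 rows (y axis, TMM-scaled CPM, separate scales from 0) in the 3 libraries of each group (x axis). Points are libraries, the long dash is the mean and the bars are ± 1 SD. In 7 panels both M1 groups stand above both M0 groups, and in the Cast panel KO M1 and KO M0 overlap.

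**Figure D4:**
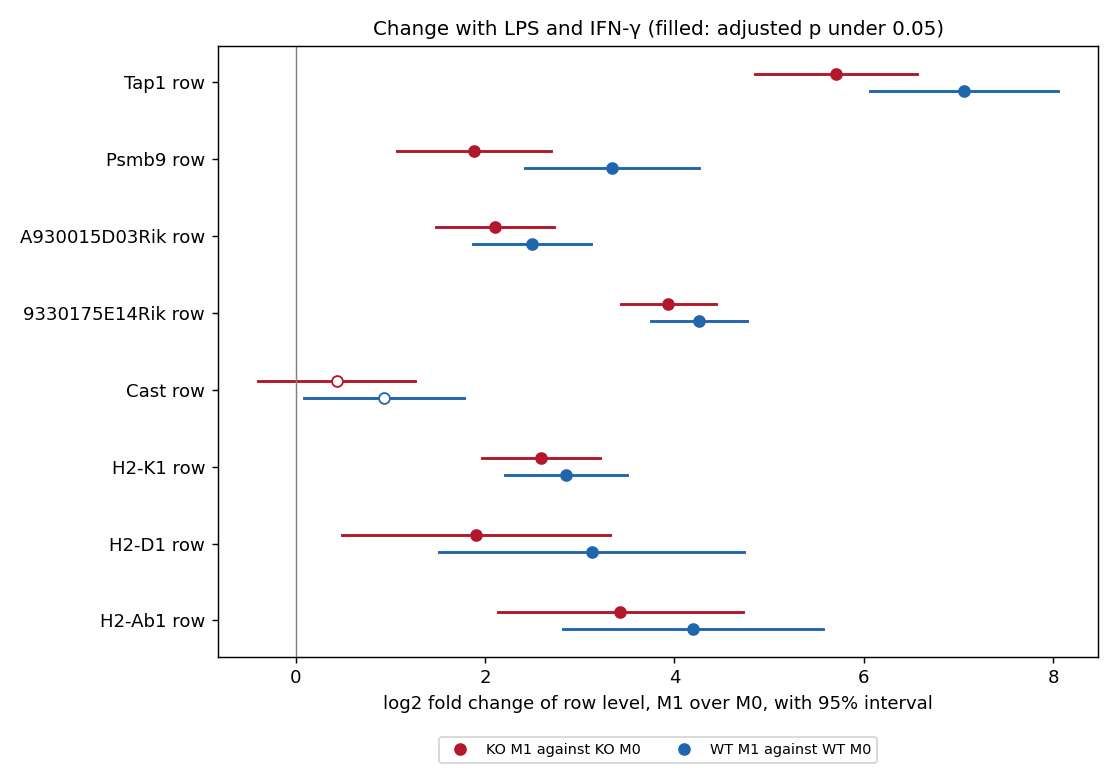
log2 fold change of M1 over M0 (x axis) for the 8 rows, with 95% intervals, KO in red and WT in blue. Filled points were called; Tap1 lies farthest right at 5.71 in KO and 7.06 in WT, and both Cast points are open.

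By level per kb of exon in KO M1, the rows ran from A930015D03Rik (157 CPM) and Tap1 (123) through 9330175E14Rik (81.0 ± 10.4), H2-K1 (78.2 ± 14.8), Psmb9 (26.4 ± 8.21), H2-Ab1 (26.1 ± 7.61) and H2-D1 (15.7 ± 9.71) to Cast (6.34 ± 1.37). The neighbours 9330175E14Rik and H2-K1, and Psmb9 and H2-Ab1, differed by less than the SD of either row. The B2m row, for β2-microglobulin, was at 186 ± 51.3 CPM per kb in KO M1, against 27.9 ± 10.4 CPM per kb in KO M0.

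The 8 rows were read beside a list of 48 genes of class I and class II presentation, which holds 5 of them (Tap1, Psmb9, H2-K1, H2-D1 and H2-Ab1). Of the 48 genes, 21 passed the filter and 13 passed it on M0 libraries alone. With edgeR 12 of the 21 were called higher in KO M1 and 14 in WT M1, where 25.2% and 25.7% of all tested rows were. None was called lower, also with DESeq2, with limma-voom or at an unadjusted p under 0.05. The median log2 fold change of the 21 was 1.88 in KO and 2.44 in WT, against 0.01 and −0.03 over all tested rows. These numbers describe rows that often passed through their M1 counts alone. The list was made with earlier results known, so the numbers are not an independent test of enrichment.

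Of 17 rows for class I chains with B2m, 7 passed and 6 rose in each genotype. Of all tested rows, 25.2% were called higher in KO and 25.7% in WT. The H2-Q4 row, which shares 496 exon bases with the antisense gene Gm11131, rose by 3.85 in KO and 3.73 in WT (edgeR adjusted p = 5.05e-11 and 4.66e-11). The H2-T23 row, for the nonclassical Qa-1, rose by 3.92 and 3.87 (edgeR adjusted p = 5.81e-06 and 1.09e-05). The B2m row rose by 2.73 and 3.12 (edgeR adjusted p = 3.51e-08 and 1.84e-09). H2-T24 was tested and not called, with 0.25 in KO and −0.86 in WT.

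Of 5 rows for the immunoproteasome and the proteasome activator PA28, Psmb9 and Psme1 passed the filter and both rose. Of all tested rows, 25.2% were called higher in KO and 25.7% in WT. The Psme1 row, for a subunit of PA28, rose by 2.71 in KO and 1.95 in WT (edgeR adjusted p = 4.83e-06 and 0.000245). Psme1 (plus strand) ends at chr14:55581529 and Emc9 (minus strand) at 55581516, so their spans overlap at the 3′ ends. The Psmb8 row, for another immunoproteasome subunit, held 8, 6 and 6 counts in KO M1 and 16, 12 and 8 in WT M1, against 0 in every M0 library. Set against 3 counts over the M0 group, and with the M1 counts taken as exact, that was 9.02-fold in KO and 16.7-fold in WT. The exact permutation test over 6 and 6 libraries gave p = 0.00216. The Tap2 row, for the partner chain of TAP1, summed to 51 counts in M1 and 2 in M0 (exact permutation p = 0.00216). Of the exon bases of Psmb8 14.7%, and of those of Tap2 18.5%, lie under opposite-strand exons. Exons of Gm20496, the antisense gene that also ends near Tap1, cover 498 bases of Psmb8 and 165 of Tap2. The row of the constitutive subunit gene Psmb7, which overlaps Nek6, fell by 1.95 in KO and by 3.28 in WT on the log2 scale (edgeR adjusted p = 0.000713 and 3.02e-07). The other constitutive rows listed, Psmb5 and Psmb6, were too low for the edgeR test. Psmb6 summed to 10 counts in KO M1 and 5 in KO M0, and to 6 in WT M1 and 5 in WT M0. Psmb5 summed to 2 and 2 in KO, and to 2 and 0 in WT. Psmb10, of the immunoproteasome list, was also too low, with 25 and 5 in KO and 15 and 5 in WT.

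Of 8 transport and loading rows, 6 passed, and 2 rose in KO and 4 in WT. The KO count is close to the 25.2% of all tested rows called higher. The chaperone row Calr changed by 1.10 and 1.01 (edgeR adjusted p = 0.000789 and 0.00195). Tapbp, for tapasin, has 24.9% of its exon bases under opposite-strand exons. It was called in WT at 0.78 (edgeR adjusted p = 0.00675) and had 0.51 in KO (adjusted p = 0.0783). Pdia3 was called in WT at 2.44 (edgeR adjusted p = 0.0203) and had 1.19 in KO (adjusted p = 0.214). Neither difference between genotypes was called in the interaction test. Canx and Tapbpl were tested and called in neither genotype, with −0.72 and −0.15 in KO.

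Among 13 class II rows 4 passed, and H2-Ab1 and Cd74 rose in both genotypes. Of all tested rows, 25.2% were called higher in KO and 25.7% in WT. The Cd74 row, for the invariant chain, changed by 5.97 in KO and 4.70 in WT (edgeR adjusted p = 9.05e-09 and 3.72e-08). It held 0, 0 and 2 counts in KO M0, so that fold is loosely set, and Tcof1, on the other strand, ends 1103 bases from its nearest exon. Ctss and Lgmn, lysosomal proteases, were tested and called in neither genotype. The H2-Aa row, for the α chain that pairs with H2-Ab1, averaged 18.8 ± 9.55 CPM in M1 and 2.61 ± 3.12 CPM in M0 (SD, n = 6 each, exact permutation p = 0.00433). For H2-Eb1 the averages were 13.3 ± 5.12 and 4.76 ± 4.55 CPM (exact permutation p = 0.0216). The row of Ciita, which shares 329 exon bases with Dexi on the other strand, averaged 9.27 ± 6.13 CPM in M1 and 6.75 ± 4.49 CPM in M0 (exact permutation p = 0.416). Of 5 transactivator rows, Rfx5 and Rfxank passed the filter and were not called. Rfx5 has 26.8% and Rfxank 33.8% of its exon bases under opposite-strand exons. Exact tests were run on 7 rows in all and were not adjusted.

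The genotype comparisons asked whether loss of Gpr31b changed these rows. With edgeR none of the 8 was called in KO M1 against WT M1, where 0% of all tested rows were called, or in KO M0 against WT M0, where 0.0429% were. None was called in the interaction of genotype with stimulation, also at 0% of all tested rows. DESeq2 and limma-voom called 0 of the 8 in each of the 3 comparisons. At an unadjusted p under 0.05 there was 0 of 8 in M1, 1 of 8 in M0 and 1 of 8 for the interaction, in both cases the Psmb9 row. Over all 2333 tested rows there were 164, 151 and 144, so a count of 1 in 8 says little about the members.

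In stimulated cells the intervals were narrowest. The 9330175E14Rik row averaged 481 ± 61.9 CPM in KO M1 and 499 ± 44.7 CPM in WT M1, a log2 difference of −0.06 (95% interval −0.44 to 0.33). The Tap1 row averaged 676 ± 87.4 CPM in KO M1 and 628 ± 61.2 CPM in WT M1, a difference of 0.11 (−0.47 to 0.68). For H2-K1 the means were 230 ± 43.3 CPM in KO M1 and 210 ± 37.6 CPM in WT M1, with a difference of 0.12 (−0.42 to 0.66). For A930015D03Rik the difference was −0.25 (−0.80 to 0.30), for Psmb9 −0.05 (−0.78 to 0.69), and for Cast −0.08 (−0.91 to 0.75). The intervals of H2-D1 (−1.11 to 1.4996) and H2-Ab1 (−1.17 to 0.89) reached beyond a 2-fold change. The KO M1 and WT M1 libraries overlapped in all 8 rows, where 5.96% of all tested rows lay wholly higher in KO M1 and 4.84% wholly lower.

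In unstimulated cells all 8 log2 differences were positive, with a median of 0.52, where 51.1% of all tested rows were positive and their median was 0.01. The 8 values ranged from 0.14 for A930015D03Rik to 1.46 for Tap1, and these rows share their libraries. Psmb9 averaged 25.9 ± 3.07 CPM in KO M0 and 9.68 ± 2.77 CPM in WT M0, a log2 difference of 1.41 (95% interval 0.41 to 2.41, unadjusted p = 0.00731, edgeR adjusted p = 0.536). In counts this was 15, 12 and 12 in KO M0, against 5, 6 and 4 in WT M0. The KO M0 libraries lay wholly above the WT M0 libraries in 2 rows, Psmb9 and H2-D1, where 6.52% of all tested rows did so and 5.4% lay wholly below. For H2-D1 the gap was 5.88 against 5.62 CPM. The Tap1 difference of 1.46 had an interval of −0.21 to 3.12.

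The interaction, the KO response minus the WT response, was below 0 in all 8 rows, with a median of −0.63, where 50.5% of all tested rows were above 0 and their median was 0.01. It is built from the same M0 libraries as the comparison before it and adds nothing independent. For Psmb9 it was −1.46 (95% interval −2.70 to −0.21, unadjusted p = 0.023, edgeR adjusted p = 0.70), with log2 responses of 1.88 in KO and 3.34 in WT. For 9330175E14Rik it was −0.32 (−1.08 to 0.44) and for H2-K1 −0.27 (−1.17 to 0.64).

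**Figure D5:**
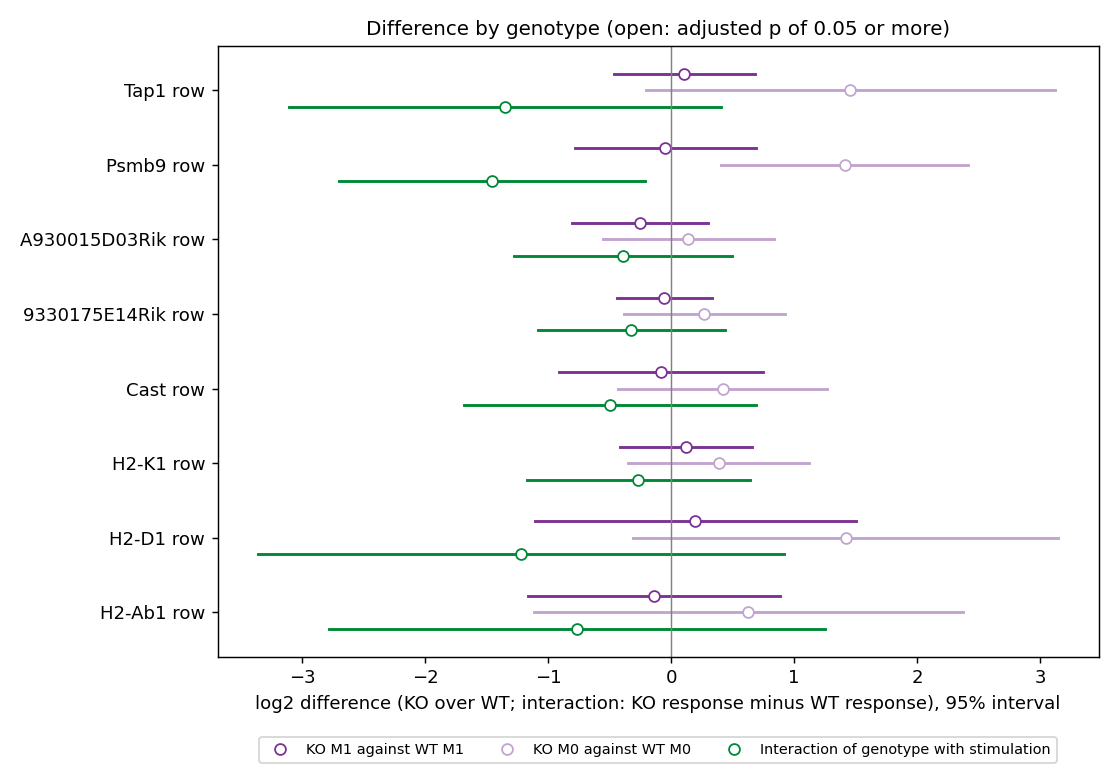
Genotype differences of the 8 rows on the log2 scale (x axis) with 95% intervals: KO over WT in M1, KO over WT in M0, and the interaction. All points are open, since none was called; the M0 points lie right of 0, and for Psmb9 the M0 and interaction intervals leave out 0.

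For each member the 3 rows nearest in pattern were named, by the root mean square difference of row-centred log2 CPM over the 12 libraries. H2-K1 was nearest to Irf1, an interferon-induced transcription factor gene, at 0.277, where the median over all tested rows was 1.46. H2-K1 was in turn the third nearest row of Psmb9 (0.387), after Znfx1 and Mir6244. The 3 nearest to Tap1 were Gm11978 (0.686), Gm14023 and Skiv2l2, against a median of 3.13. A930015D03Rik was nearest to Ogfr (0.257), Sla2 and Dnah17, and 9330175E14Rik to Sco1 (0.365), Foxo4 and Epha1. Foxo4 was also the nearest row of H2-Ab1 (0.383), followed by Emc9, whose gene overlaps the 3′ end of Psme1 as given above. H2-D1 was nearest to Tnfrsf1b (0.346) and Cast to Pcp2 (0.289). Except for H2-K1 with Psmb9, none of these rows was a member.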

How the data were processed

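RNA of 12 macrophage cultures was polyA-selected and made into strand-specific TruSeq libraries, per the labels' protocols. The authors deposited 1 table of raw, whole-number counts with a row per gene symbol. Trimmomatic, FastQC, HTSeq, DESeq2 and mm10 appear in the submitters' processing notes, without versions. Aligner, annotation and strand setting: not given in the sources used here.

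Symbols were matched to GENCODE M21, and exon overlaps of 20 bases or more on the opposite strand were listed. filterByExpr (minimum count 10) kept 2333 rows. A robust quasi-likelihood model in edgeR 4.0.16 (R 4.3.3), with TMM factors and 4 groups, gave the 5 comparisons, and p-values had Benjamini-Hochberg adjustment across those rows. Standard errors and 95% intervals derive from each fold and its F statistic. DESeq2 1.42.0 and voom in limma 3.58.1 were alternatives. The model was also run on simulated counts with 200 changed rows, where stimulation gave 1110 called rows in KO and 1138 in WT. No result here rests on that run. Rows too low for it had exact two-sided permutation tests of CPM. Counts are of PCR-amplified reads, not of distinct molecules.

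The members and gene lists were chosen with earlier results of these data known. Named are the members, their overlapping partners, called rows of the presentation lists, a set of their genes, and the 3 nearest rows per member.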

Additional observations from a re-analysis of the deposited data

How the results depend on the processing

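Stimulation results were recomputed under 8 other settings, genotype and interaction results under 7 of them, and all without each of the 12 libraries in turn. The number of members called stayed at 6 to 7 of 8 in KO and 7 to 8 in WT, and at 0 in both genotype comparisons and the interaction. The presentation rows called numbered 11 to 15 in KO and 13 to 17 in WT. Of 320 stimulation values of the members, 313 kept their direction and their side of the threshold. The exceptions were Cast and H2-D1. With library totals alone as the scale, the median of all rows shifted to −0.46 in KO and −0.53 in WT, the calls were 393 higher and 850 lower in KO and 397 higher and 881 lower in WT, and the Cast value in KO was −0.037.

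Of 456 genotype and interaction values 16 changed sign, and none was called with either sign. For KO M1 against WT M1, H2-Ab1 was 0.011 with limma-voom. Leaving out 1 library gave ranges across 0 for KO M1 against WT M1 in Tap1 (−0.0041 to 0.19), Psmb9 (−0.32 to 0.11), 9330175E14Rik (−0.17 to 0.025), Cast (−0.22 to 0.083), H2-K1 (−0.020 to 0.25), H2-D1 (−0.42 to 0.52) and H2-Ab1 (−0.45 to 0.16). The same held for A930015D03Rik in KO M0 against WT M0 (−0.057 to 0.37) and for the H2-K1 interaction (−0.75 to 0.032). The cause was not tested.

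Replicate numbers are shared by the 4 groups. Same-numbered M1 and M0 libraries deviated together with correlations of 0.0413 to 0.120, against −0.0992 to 0.0255 for different numbers of the same genotype. Every M1 library correlated best with its own number. The correlations were under 0.1 in 4 of 6 pairs. Between genotypes within a state, same numbers gave −0.0248 (number 1 in M1) to 0.173 (number 2 in M0). Different numbers gave −0.116 to 0.0873 there. The main and exact tests did not take the numbers as pairs. Whether the numbers mark shared animals or cultures is not in the labels and was not tested. A replicate block left the calls at 7 members in KO, 7 in WT and 0 in the genotype comparisons and the interaction. No member was too low for the filter, so the exact test planned for such members was not run. Depth limits H2-D1, H2-Ab1 and Tap1 most, whose M0 libraries held 0 to 14 counts.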
